A study of Glycine max with 16 samples.

Results

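LEC1 (LEAFY COTYLEDON1) binding sites of soybean embryos were compared between the early maturation stage (EM) and the earlier cotyledon stage (COT). The material was Glycine max cultivar Williams 82, and both stages were immunoprecipitated with the antibody raised against recombinant GmLEC1 fused to GST. EM embryos were dissected from seeds 6 to 7 mm long, and COT embryos from seeds 2.5 to 3.5 mm long. Each stage had 2 ChIP libraries and 2 input libraries of total chromatin made without antibody, as biological replicates, which is 8 of the 16 libraries of the study. The other libraries were from mid-maturation embryos (MM) and from EM embryos precipitated with an antibody against a GmLEC1 peptide (EM peptide), and their peak lists served only as a check. The members were all peaks of the EM and COT lists, 106985 of the 220697 peaks in the 4 lists. The EM list held 55140 peaks and the COT list 51845. Each list gives, for each peak, its position in the Gmax275 genome build and a score by the authors, used here only to rank peaks within a list.

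LEC1 is the B-type subunit of a nuclear factor Y complex. It assembles with a C-type and an A-type subunit into a trimer that binds DNA at CCAAT boxes, and it also works with other seed transcription factors. In Arabidopsis, LEC1 is required for embryo identity early on and for storage reserve accumulation and desiccation tolerance during maturation. In soybean the embryo is still forming its organs and tissues at the cotyledon stage, and at early maturation it starts to fill with storage protein and oil.

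Each stage is represented by 1 peak list, so the spread between replicates could not be measured and no test between the stages was possible. Intervals are 95% exact binomial (Clopper-Pearson) and cover counting error only, and ranges over the 20 chromosomes are given as a description. Reads per library are not in these files and the depth behind each list is unknown. Stage, experiment and sequencing depth cannot be told apart between the lists, and in whole embryos fewer cells with bound LEC1 and less binding per cell cannot be told apart. Genes and DNA sequence at the sites were not used here.

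An EM peak was taken as shared when it overlapped a COT peak by at least 1 bp. Gained sites are EM peaks without a COT peak, and lost sites are COT peaks without an EM peak. Gained sites numbered 16406, 29.8% of the EM list (interval 29.4 to 30.1), and lost sites 12731, 24.6% of the COT list (24.2 to 24.9). On single chromosomes the gained share was 27.1 to 33.2% and the lost share 21.4 to 26.1%, and the gained share was the higher of these on 20 of 20 chromosomes. Since shared peaks are mostly matched 1 to 1, the excess of gained over lost sites is set largely by the longer EM list, and it was smaller at equal length. With the EM list cut to its 51845 highest-scoring peaks, 14317 EM peaks (27.6%) had no COT peak and 13867 COT peaks (26.7%) had no EM peak. Of the 3295 EM peaks removed to reach equal length, 63.4% had been gained sites. With the EM list cut to the bases covered by the COT list, 37247 EM peaks stood against 51845 COT peaks, and the counts of 6724 gained and 20746 lost sites follow from these unequal lengths. Between the higher-scoring 50% of each list, 8846 of 27570 EM peaks (32.1%) were gained and 7009 of 25922 COT peaks (27.0%) were lost. These lists are again of unequal length.

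Gained and lost sites were narrow and held less of the bound sequence than of the peak number. Gained sites covered 3.73 Mb, 19.4% of the 19.2 Mb of the EM list, and lost sites 2.42 Mb, 15.2% of the 16.0 Mb of the COT list. The median width was 200 bp for gained sites and 400 bp for the EM peaks shared with COT, and it was 150 bp for lost sites and 300 bp for the COT peaks shared with EM. Peaks of 100 bp, the narrowest in either list, made up 18.1% of gained sites and 25.5% of lost sites, against 3.63% of shared EM peaks and 5.18% of shared COT peaks. Among EM peaks of 100 bp, 67.9% were gained, and among COT peaks of 100 bp, 61.6% were lost. At 300 bp these shares were 31.2% of EM peaks and 15.0% of COT peaks. Of the 1529 EM peaks at least 800 bp wide, 17 were gained, and of the 865 COT peaks of that width, 5 were lost. The widest gained site measured 1050 bp and the widest lost site 900 bp. At every single width from 100 to 450 bp, the gained share of EM peaks was higher than the lost share of COT peaks. This compares whole lists of unequal length, with unscaled widths. EM peaks were also wider as a whole, with a mean of 349 bp against 308 bp at COT, so equal widths are not equal ranks.

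Peaks without a partner were mostly of low score. In 10 equal steps from the highest to the lowest scores of the EM list, gained sites made up 1.63, 5.88, 11.0, 17.7, 24.4, 31.2, 41.0, 48.6, 54.4 and 61.8% of the peaks. In the COT list, lost sites made up 0.174, 1.29, 3.90, 9.47, 16.2, 25.7, 34.8, 43.3, 51.2 and 59.5%. The share without a partner went up at each step in both lists, and in each step that of EM was the higher. Nearly all of the strongest peaks of both stages were shared. Their order by score differed, however: of the 1000 highest-scoring EM peaks, 715 overlapped none of the 1000 highest-scoring COT peaks, while 8 overlapped no COT peak at all. Among the 1000 highest-scoring COT peaks, 714 overlapped none of the 1000 highest-scoring EM peaks, and 0 were without any EM peak. Among the first 20000 peaks, 1573 EM peaks (7.87%) had no COT peak and 684 COT peaks (3.42%) had no EM peak, and among the first 40000 the counts were 7960 (19.9%) and 6335 (15.8%). Of the first 5000 peaks, 78 EM peaks and 6 COT peaks had no partner, and with a reciprocal overlap of 50% as the criterion these counts were 379 and 146. With midpoints within 100 bp as the criterion they were 429 and 346, and at equal list length 78 and 10. Except at equal length, COT peaks were matched against the longer EM list, also in the steps of 10%.

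**Figure D1:**
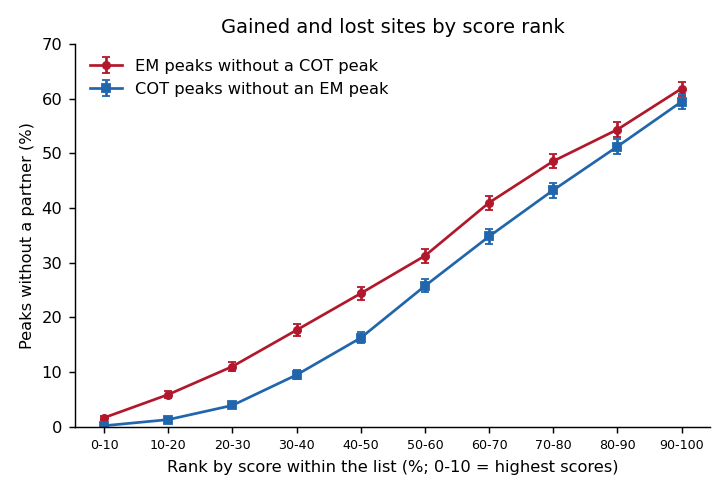
Share of peaks without a partner in the other list (vertical axis, %), by rank of the score within each list (horizontal axis, steps of 10% from the highest scores). Red circles are EM peaks without a COT peak and blue squares COT peaks without an EM peak, with exact 95% binomial intervals; EM went from 1.63 to 61.8% and COT from 0.174 to 59.5%.

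The 8 highest-scoring gained sites lay on 6 chromosomes. Each overlapped a peak of the MM list, and 7 of them one of the EM peptide list. The first, at chr3:1665501-1666100 (600 bp, place 148 by score in the EM list), lay 15600 bp from the nearest COT peak, and the MM and EM peptide peaks over it were 650 and 600 bp wide. The second, at chr6:16966401-16967050 (650 bp, place 240), was 1950 bp from a COT peak, with an MM peak of 750 bp and an EM peptide peak of 600 bp. The third, at chr8:19551851-19552350 (500 bp, place 544), was isolated, 23250 bp from the nearest COT peak and 23200 bp from the nearest other EM peak. At these 3 sites the peak widths of the MM and EM peptide lists lay within 100 bp of the EM width. The site at chr9:46486851-46487500 (650 bp, place 723) had peaks of 650 bp at MM and 600 bp in the EM peptide list. The site at chr3:34068101-34068600 (500 bp, place 839) had an MM peak of 550 bp and no EM peptide peak. The site nearest to a COT peak, at 300 bp, was chr6:12668651-12669250 (600 bp, place 995), and another EM peak lay 200 bp from it. The others were chr14:5020601-5021150 (550 bp, place 961), 2000 bp from a COT peak, and chr15:48410951-48411450 (500 bp, place 986), 30950 bp from one.

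The 8 highest-scoring lost sites ranked lower in their list and overlapped MM peaks at 7 and EM peptide peaks at 5 of the 8. The first, at chr7:38104601-38105100 (500 bp, place 2648 in the COT list), lay 7500 bp from the nearest EM peak; the MM peak over it was 150 bp wide and stood in place 63718 of the 64146 MM peaks, and there was no EM peptide peak. The site at chr5:2283151-2283650 (500 bp, place 3593) lay 50 bp from an EM peak and had peaks of 200 bp in both the MM and the EM peptide lists. The site at chr1:53107501-53107950 (450 bp, place 4137) had no peak in any other list. At chr4:5692601-5693050 (450 bp, place 4539) the MM and EM peptide peaks were 400 bp wide each, and at chr7:7154351-7154750 (400 bp, place 4566) they were 300 and 250 bp wide. The widest of these lost sites, at chr10:7856251-7857050 (800 bp, place 4945), lay 50 bp from an EM peak, and the MM peak over it was 900 bp and the EM peptide peak 750 bp wide. The site at chr6:16697601-16698000 (400 bp, place 5067) was 700 bp from an EM peak and lay under an MM peak of 600 bp. The last, at chr14:44900801-44901250 (450 bp, place 5076), overlapped an MM peak of 250 bp and no EM peptide peak.

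Gained sites were found in the other lists more often than lost sites were. MM peaks overlapped 72.6% of the gained sites (71.9 to 73.2) and 36.1% of the lost sites (35.3 to 37.0). EM peptide peaks overlapped 47.4% of the gained sites (46.6 to 48.2) and 26.8% of the lost sites (26.0 to 27.6). Shared peaks stood at 92.9% of EM peaks and 93.0% of COT peaks for MM, and at 85.3 and 85.2% for the EM peptide list. Absent from both of those lists were 3626 gained sites (22.1%) and 6978 lost sites (54.8%). The gained sites held by both other lists, 6900 in number, had a median width of 250 bp, and those held by neither 150 bp. For lost sites the 2253 held by both had a median of 200 bp and the 6978 held by neither 150 bp. The difference between gained and lost sites was present at each step of rank by score within the own list, which need not be the same score in both lists. In the first 10%, 90 of 90 gained sites and 8 of only 9 lost sites had an MM peak. In the second 10% of the EM list, 324 of 324 gained sites had an MM peak, against 43 of 67 lost sites (64.2%) in the second 10% of the COT list. In the lowest-scoring 10%, 53.0% of gained and 26.5% of lost sites had one. With lists of equal length the MM shares were 75.5% of gained and 38.8% of lost sites. The lists differ in length, and MM, the longest, was made with the same antibody as EM and COT, while the EM peptide list shares the stage of EM; the part of stage, antibody and experiment in these shares was not tested.

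**Figure D2:**
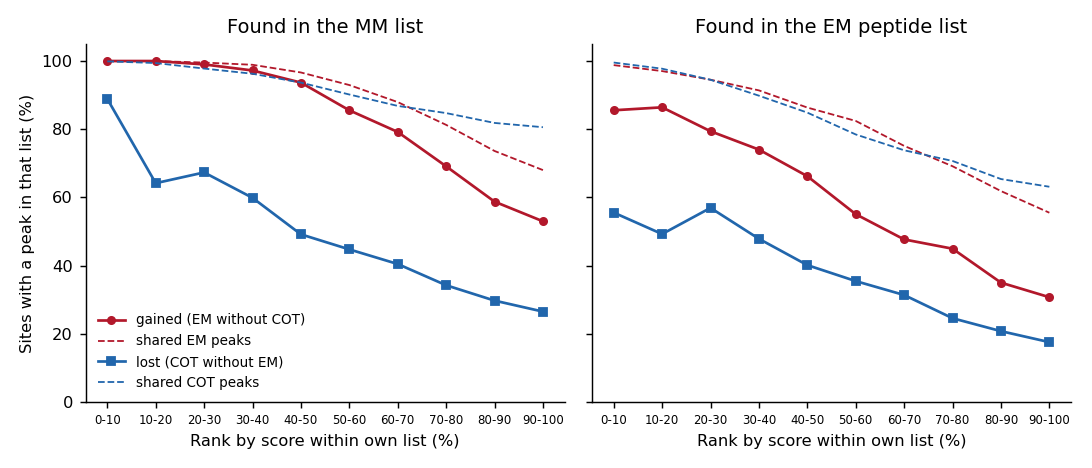
Share of sites overlapped by a peak of the MM list (left panel) or of the EM peptide list (right panel), in %, by rank of the score within the site's own list (steps of 10% from the highest). Red circles are gained sites and blue squares lost sites, and dashed lines are the shared peaks of EM (red) and COT (blue). Gained sites were above lost sites at every step in both panels, with 90 gained and 9 lost sites in the first step.

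Some sites counted as gained or lost lay beside a peak of the other stage. Of the gained sites, 465 (2.83%) were at most 50 bp from a COT peak, 2524 (15.4%) at most 500 bp and 4621 (28.2%) at most 1 kb. Of the lost sites, 523 (4.11%) were at most 50 bp from an EM peak, 2308 (18.1%) at most 500 bp and 3960 (31.1%) at most 1 kb. The median distance to the nearest peak of the other stage was 2500 bp for gained and 2250 bp for lost sites. More than 20 kb from any peak of the other stage lay 1116 gained sites (6.80%) and 763 lost sites (5.99%). Gained and lost sites also lay side by side: 374 gained sites were at most 50 bp from a lost site, with a median width of 150 bp. Counting peaks up to 200 bp apart as shared left 15381 gained sites, 27.9% of EM peaks, and 11625 lost sites, 22.4% of COT peaks.

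Within their own list, gained and lost sites were spaced much like the shared peaks. The nearest other EM peak lay within 1 kb of 32.6% of gained sites (31.9 to 33.3) and of 32.9% of shared EM peaks (32.4 to 33.3). The nearest other COT peak lay within 1 kb of 29.3% of lost sites (28.5 to 30.1) and of 31.8% of shared COT peaks (31.3 to 32.2). The median gap to the nearest neighbour was 2100 bp for gained and 1950 bp for shared EM peaks, and 2400 bp for lost and 2100 bp for shared COT peaks. The order of gained and lost sites in these shares was not stable, since with midpoints within 100 bp as the criterion 34.4% of gained and 35.0% of lost sites had such a neighbour, and in the higher-scoring 50% of each list 17.0 and 17.2%. Beside a shared peak of their own list, within 1 kb, lay 22.0% of gained and 22.2% of lost sites. Another gained site was within 1 kb of 12.7% of gained sites, and another lost site within 1 kb of 8.73% of lost sites, and gained sites are also the more numerous.

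Single sites, with no other site of their kind next to them in their own list, held 46.2% of gained and 55.6% of lost sites. Gained sites formed 11133 runs uninterrupted by a shared EM peak, of which 7584 were single sites, 2381 pairs and 1168 runs of 3 or more, the last holding 24.7% of gained sites. Lost sites formed 9484 runs, of which 7075 were single sites, 1784 pairs and 625 runs of 3 or more, holding 16.4% of lost sites. Gained sites were 29.8% of EM peaks and lost sites 24.6% of COT peaks. The larger share by itself makes longer runs, and clustering beyond it was not tested. The longest gained run had 10 sites over 91.7 kb at chr18:53406701-53498350, 6 of them overlapped by MM peaks and 6 by EM peptide peaks. A run of 9 gained sites spanned 681 kb at chr20:29964251-30644850, with all 9 in the MM list and 4 in that of the EM peptide antibody. The shorter of 2 runs of 8 lay at chr9:4323051-4400550. The longest lost runs had 8 sites each. That at chr13:43919701-43950500 spanned 30.8 kb, with 0 of its sites overlapped by MM peaks and 1 by an EM peptide peak. The others were chr19:48892801-48952550 and chr1:55658751-55756850, with 5 of 8 sites in the MM list in each.

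Gained and lost sites were distributed along the chromosomes much like shared ones. In the central 25 to 75% of the chromosome length lay 21.5% of gained sites (20.9 to 22.1) and 21.4% of shared EM peaks (21.0 to 21.8), and 21.9% of lost sites (21.2 to 22.7) and 21.3% of shared COT peaks (20.9 to 21.7). In the higher-scoring 50% of each list the centre held 22.1% of gained and 20.5% of lost sites. The outer 20% at either end held 68.3% of gained and of lost sites, against 69.0% of shared EM and 69.1% of shared COT peaks. From one end to the other in steps of 10% of the length, the gained share of EM peaks stayed between 28.5 and 31.2% and the lost share of COT peaks between 23.4 and 27.5%. The number of EM peaks per step varied from 1418 to 10971. Chromosome 18 had the highest gained share, 33.2%, followed by chromosome 15 with 31.6%, and chromosomes 17 and 11 had the lowest, 27.1 and 27.2%. The lost share was highest on chromosomes 5 (26.1%) and 20 (25.7%) and lowest on chromosomes 9 (21.4%) and 12 (23.0%).

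**Figure D3:**
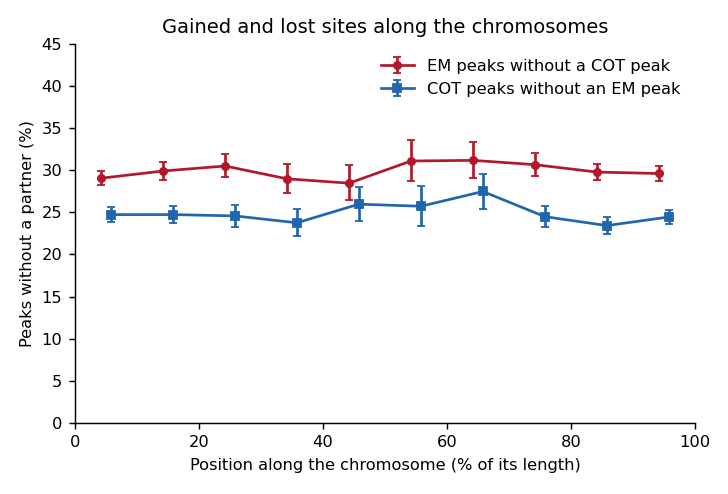
Share of peaks without a partner (vertical axis, %) along the chromosomes (horizontal axis, position as % of the chromosome length, steps of 10%). Red circles are EM peaks without a COT peak and blue squares COT peaks without an EM peak, with exact 95% binomial intervals; both lines are nearly level, at 28.5 to 31.2% for EM and 23.4 to 27.5% for COT.

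Most windows of 1 Mb held both gained and lost sites. Of 951 windows with a peak of either stage, 905 held gained sites, 878 held lost sites and 849 held both kinds. Since nearly every window held each kind, the last count cannot show whether they tend to occur together. EM peaks outnumbered COT peaks in 607 windows, COT peaks outnumbered EM peaks in 240, and the numbers were equal in the others. In the 408 windows with at least 50 peaks of each stage, the gained share had a median of 29.8% and ran from 14.7 to 46.1%, and the lost share had a median of 24.2% and ran from 7.23 to 37.1%. The window with the highest count of gained sites was 4000001 to 5000000 of chromosome 11, with 60 among 184 EM peaks. It also had the highest count of lost sites, 53 among 182 COT peaks. The neighbouring window 3000001 to 4000000 of chromosome 11 had 57 gained and 37 lost sites, and 35000001 to 36000000 of chromosome 13 had 54 gained and 45 lost sites, level in gained sites with 8000001 to 9000000 of chromosome 15. After the first window, the windows with the highest counts of lost sites were on chromosome 6. They had 49 at 8000001 to 9000000, beside 37 gained, and 48 at 3000001 to 4000000, beside 38 gained. The largest net differences, chosen after their values were seen, were an EM excess of 33 at 53000001 to 54000000 of chromosome 18, with 115 EM and 82 COT peaks, and a COT excess of 19 at 46000001 to 47000000 of chromosome 20, with 100 EM and 119 COT peaks. The first of these windows had the gained share of 46.1% and contains the run of 10 gained sites.

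Shared sites were mostly matched peak to peak. Pairs in which 1 EM peak overlapped 1 COT peak and neither overlapped another numbered 37515, which is 96.9% of the shared EM peaks and 95.9% of the shared COT peaks. In these pairs EM peaks averaged 394 bp and COT peaks 344 bp, with medians of 400 and 300 bp. The mean difference, EM minus COT, was 49.8 ± 137 bp (SD over pairs) and the median 50 bp. The EM peak was wider in 22065 pairs (58.8%), both were equal in 5632 (15.0%), and the EM peak was narrower in 9818 (26.2%). Start and end both coincided in 2540 pairs (6.77%). On single chromosomes the mean difference was 41.3 bp (chromosome 4) to 58.9 bp (chromosome 9). Midpoints lay at most 50 bp apart in 78.0% of pairs.

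**Figure D4:**
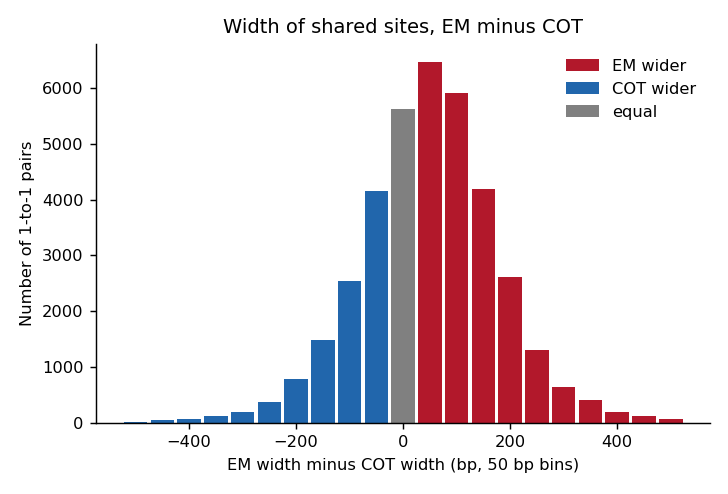
Number of 1-to-1 pairs (vertical axis) by EM width minus COT width in bp (horizontal axis, 50 bp bins). Red bars are pairs with the wider peak at EM (22065), blue bars those with the wider peak at COT (9818) and the grey bar equal widths (5632); 190 pairs that differed by more than 500 bp are not drawn.

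Widened sites were defined as pairs with an EM width at least 1.5 times the COT width, and narrowed sites as pairs with a COT width at least 1.5 times the EM width. There were 9315 widened pairs, 24.8% of all pairs (24.4 to 25.3), and 3976 narrowed pairs, 10.6% (10.3 to 10.9). Widened pairs outnumbered narrowed ones on 20 of 20 chromosomes, 2.02 times (chromosome 4) to 2.79 times (chromosome 9). Dividing EM widths by the ratio of the summed widths over all pairs, 1.14, makes the summed widths of both stages equal and so brings the counts near balance by construction. Widened pairs then numbered 5566 (14.8%) and narrowed pairs 5530 (14.7%). With lists of equal length the counts were 9270 widened (25.4%) and 3191 narrowed (8.76%) of 36444 pairs. Scaled in addition, by the ratio of the summed widths over these 36444 pairs, they were 5551 (15.2%) and 4731 (13.0%). Over all pairs, with the scaling by 1.14 and a difference of at least 100 bp in place of the threshold of 1.5, the counts were 6737 widened and 6918 narrowed. This is a reversal within the balance that the scaling sets. Widths come in steps of 50 bp, so the pairs nearest the threshold are uneven: 1750 pairs had EM/COT ratios of 1.5 to 1.55, with median widths of 300 and 200 bp, and 25 had ratios just under it, of 1.45 to 1.47. For narrowing, 880 pairs lay just inside the threshold, at EM/COT ratios of 0.647 to 0.667, and 11 just outside, at 0.684 to 0.688. Under a reciprocal overlap of 50%, which removes the most unequal pairs, narrowed pairs numbered 2534 of 32818 (7.72%).

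The widened and narrowed shares varied with the widths that define them. Of the pairs with a COT width of 100 to 150 bp, 72.5% were widened, of those of 300 to 350 bp 17.0%, and of those of at least 500 bp 2.01%. Of the pairs with an EM width of 100 to 150 bp, 60.5% were narrowed, of those of 300 to 350 bp 4.66%, and of those of at least 500 bp 0.514%. Pairs with an EM width of at least 500 bp were widened in 24.7% of cases, 2644 pairs in all, whereas those with a COT width of at least 500 bp were narrowed in 10.4%, 665 pairs. No peak is narrower than 100 bp, which limits how far a site can narrow. Median widths of widened pairs were 400 bp at EM and 200 bp at COT, and of narrowed pairs 150 bp at EM and 300 bp at COT. By score, 68.1% of widened pairs were in the upper 50% of the EM list and 28.8% in the upper 50% of the COT list. Narrowed pairs were in the upper 50% of the EM list for 10.1% and of the COT list for 59.1%. Among strong peaks the excess of widened pairs was also present in unscaled widths. Of the 2642 pairs within the 5000 highest-scoring peaks of each list, 240 were widened (9.08%) and 19 narrowed (0.719%). These 5000 peaks were wider as a whole at EM, with a mean of 603 bp against 541 bp at COT, and scaled widths were not counted for them.

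**Figure D5:**
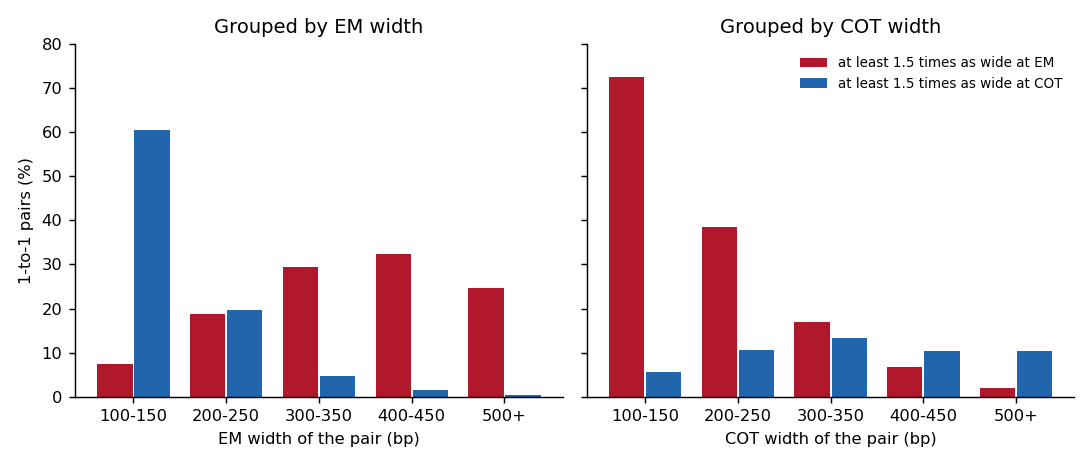
Percentage of 1-to-1 pairs (vertical axis) that were at least 1.5 times as wide at EM (red bars) or at COT (blue bars), grouped by the width of the EM peak (left panel) and of the COT peak (right panel), in bp. Red bars reach 72.5% for the narrowest COT peaks and blue bars 60.5% for the narrowest EM peaks.

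Widening was mostly on both sides of a site. In 7182 widened pairs (77.1%) the EM peak extended beyond the COT peak at both ends, in 1612 (17.3%) at 1 end with the other in place, and in 521 (5.59%) it reached further at 1 end and less far at the other. The left end, towards lower coordinates, moved further in 3608 pairs and the right end in 3730, with a median of 100 bp at each. In narrowed pairs the COT peak extended further at both ends in 1995 (50.2%), at 1 end in 1345 (33.8%), and the ends moved in the same direction in 636 (16.0%). The chromosome centres held 21.8% of widened and 21.9% of narrowed pairs, and 21.2% of the other pairs. The share of widened pairs was highest on chromosomes 16 (28.1%) and 20 (27.0%) and lowest on chromosomes 6 (22.4%) and 4 (22.6%). Narrowed pairs were most frequent on chromosomes 16 (12.0%) and 3 (11.8%) and least on chromosomes 9 (9.47%) and 18 (9.52%).

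The widths in the MM and EM peptide lists were set beside those of the pairs, where exactly 1 peak of the list overlapped the EM peak. In 7663 widened pairs with an EM peptide peak the mean width was 435 bp at EM and 370 bp in the EM peptide list, against 226 bp at COT. In 2701 narrowed pairs it was 205 bp at EM and 324 bp in the EM peptide list, against 390 bp at COT. In 8678 widened pairs with an MM peak the mean width was 422 bp at EM and 421 bp at MM, against 219 bp at COT, and in 3086 narrowed pairs it was 198 bp at EM and 341 bp at MM, against 377 bp at COT. In the pairs that were neither widened nor narrowed, the mean width was 427 bp at EM and 456 bp at MM, against 398 bp at COT, and 438 bp at EM and 428 bp in the EM peptide list, against 407 bp at COT. In all 3 kinds of pair, the means of the MM and EM peptide lists were thus nearer to that of the wider stage. Pairs without exactly 1 such peak were left out. For MM, 93.2% of widened, 77.6% of narrowed and 94.3% of the other pairs were kept, and for the EM peptide list 82.3, 67.9 and 87.7%. Widened and narrowed pairs were chosen for having 1 narrow peak, so means nearer to the wider stage can follow from that choice. These sets of widths share the EM and COT peaks that chose the pairs and are not independent of each other.

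The pair with the largest widening in bp was at chr20:34257851-34259100, where the EM peak was 1250 bp wide and the COT peak, at 34258001 to 34258150, 150 bp wide. The EM peak reached 150 bp further left and 950 bp further right. The MM peak over it was 1150 bp wide, and the EM peptide list had 2 peaks there, the wider of 500 bp. At chr8:42131401-42132500 the EM peak was 1100 bp and the COT peak 150 bp wide, and at chr6:38240751-38241850 they were 1100 and 200 bp wide. MM had 2 peaks at each of these sites. The widest EM peptide peak was 400 bp at the chr8 site and 250 bp at the chr6 site. At chr9:38476151-38477100 the EM peak was 950 bp wide and in place 2000 of its list, and the COT peak was 100 bp wide and in place 47781 of its list. MM and EM peptide peaks of 1050 and 950 bp covered that site. The last of the 6 named were chr9:1743851-1745000, with 1150 bp at EM and 300 bp at COT, and chr19:34441051-34442100, with 1050 bp at EM and 200 bp at COT. The widest EM peptide peak was 350 bp at the former and 900 bp at the latter. All 6 sites had MM and EM peptide peaks, but the EM peptide peaks were not as wide as the EM peak at most of them.

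The largest narrowing was at chr4:2367901-2368000, where the EM peak was 100 bp wide within a COT peak of 1500 bp at 2366751 to 2368250; no MM peak was called there, and 2 EM peptide peaks of 150 bp were. At chr7:6980851-6981100 the EM peak was 250 bp and the COT peak 1150 bp wide, and the MM peak was 1050 bp wide. At chr19:46576251-46576550 the widths were 300 bp at EM and 1150 bp at COT. A strong COT peak of 1250 bp, in place 913 of its list at chr5:39082901-39084150, overlapped an EM peak of 450 bp in place 41406, while the MM peak there was 1300 bp wide. Another COT peak of 1250 bp, in place 1025 at chr4:3330451-3331700, overlapped an EM peak of 450 bp, and here the MM peak was 400 bp wide. At chr17:34900951-34901200 the EM peak was 250 bp and the COT peak 1050 bp wide. The MM list was thus close to the wide COT state at some of these sites and close to EM at others. After the first site, the widest EM peptide peak was 450 bp at chr7, 300 bp at chr19, 550 bp at chr5, 600 bp at chr4 and 600 bp at chr17. It was equal in width to the EM peak at the chr19 site, and at the others wider than the EM peak and narrower than the COT peak.

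A small set of sites was joined or divided between the stages. An EM peak overlapped 2 or more COT peaks in 659 cases (1.20% of EM peaks), and a COT peak overlapped 2 or more EM peaks in 286 cases (0.552% of COT peaks). The joining EM peaks had a median width of 850 bp over COT peaks that summed to a median of 650 bp, and 34.1% of them were in the highest-scoring 10% of the EM list. The joining COT peaks had a median width of 700 bp over EM peaks that summed to 550 bp, and 18.2% were among the 10% of COT peaks with the highest scores. The gap bridged between 2 peaks of the other stage had a median of 150 bp in both directions. The highest-scoring EM peaks over 3 COT peaks were chr9:5767201-5769150 (1950 bp, place 180), chr4:4480701-4482500 (1800 bp, place 816) and chr20:38296051-38297650 (1600 bp, place 909). In the reverse direction they were chr3:38719851-38721300 (1450 bp, place 2305 at COT), chr17:14691451-14692600 (1150 bp, place 2777) and chr17:6397801-6398700 (900 bp, place 6091).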

How the data were processed

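ChIP libraries came from whole embryos cross-linked with formaldehyde at 1% during 10 minutes, per the labels' protocols, with 3 ug of antibody for each precipitation and 15 cycles of PCR. Whether embryos of several plants were pooled was not given in the labels. The submitters' processing notes list Bowtie 0.12.7 and SAMtools 0.1.19. The deposited files hold 1 score by the authors for each peak. The sources used here do not give its meaning, the peak caller, its threshold or whether replicates were combined. The build, Gmax275, is per the peak names.

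All starts as deposited, counted from 0, and all widths of the 220697 peaks were multiples of 50 bp once the end was read as the last base. Printed positions are 1-based. The numbers in the peak names follow a different order from the scores, and peaks were ranked by score. Overlaps were computed in Python 3.11.15 with pandas 2.3.3, checked with bedtools 2.31.1 and tested on simulated lists, intervals came from scipy 1.17.1, and figures were drawn with matplotlib 3.10.9. Chromosome length was taken from the last peak end of any list. The members and lists were chosen with earlier results of these data known. Named sites are the 8 highest-scoring gained and lost sites, the 6 pairs with the largest widening and narrowing, the 3 windows of 1 Mb with most gained and most lost sites, the 3 longest runs, the 3 highest-scoring peaks over most peaks of the other list, and the 2 chromosomes at each end of each share. Alternatives concerned the overlap criterion, list length, score threshold, reading of the end, scaffolds, width threshold and scaling, neighbour distance and the extent of the centre. No genes were assigned, since the gene annotation given is of a different assembly.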

Additional observations from a re-analysis of the deposited data

How the results depend on the processing

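Gained sites outnumbered lost sites in 8 of 9 settings, and widened pairs outnumbered narrowed pairs in 15 of 16. Strong EM peaks without a partner outnumbered those of COT in 11 of 11. The count of 8 adds little, since the gained excess follows largely from the longer EM list. At equal length the counts were 14317 gained and 13867 lost sites. Unequal list lengths also set the exception, at equal covered bases. Scaling of widths sets the exception among pairs, and it brings near balance the scaled settings counted among the 15. Equal covered bases (6724 gained and 20746 lost sites, 8098 widened and 1071 narrowed pairs), scaled widths at equal length (5551 widened, 4731 narrowed), ranks by the number in the peak name (76 EM and 8 COT peaks of the first 5000 without a partner) and scaled widths with a difference of 100 bp (6737 widened, 6918 narrowed) were chosen after seeing the data. In the higher-scoring 50% of each list there were 8846 gained (32.1% of 27570 EM peaks) and 7009 lost sites (27.0% of 25922 COT peaks). Of the 18454 pairs between these, 2746 were widened (14.9%) and 474 narrowed (2.57%). Widened and narrowed pairs numbered 15448 and 6615 at a lower ratio threshold, 4331 and 1919 at a ratio of 2, and 5752 and 1825 with both peaks at least 200 bp wide. At a difference of 100 bp, 15598 of the 37515 pairs were widened (41.6%) and 5663 narrowed (15.1%). With scaled widths these were 5566 (14.8%) and 5530 (14.7%). Under a reciprocal overlap of 50%, 6306 of 32818 pairs were widened (19.2%) and 2534 narrowed (7.72%). For the first 5000 peaks without a partner, the EM and COT counts were 379 and 146 with reciprocal overlap, 429 and 346 with midpoints within 100 bp, and 305 and 113 in the higher-scoring 50%. They were 8 and 0 for the first 1000 and 345 and 69 for the first 10000, and 78 and 10 at equal length. The share with a neighbour within 1 kb was 33.8% of gained and 33.0% of lost sites with reciprocal overlap, 34.4 and 35.0% with midpoints, 30.5 and 26.0% with gaps of 200 bp allowed, 17.0 and 17.2% in the higher-scoring 50%, and 31.3 and 28.2% with the end read as exclusive. At equal length it was 30.9 and 29.5%. Within 500 bp it was 18.4 and 16.2%, and within 5 kb 72.6 and 69.3%. The centre held 5.94% of gained and 6.36% of lost sites when set to 40 to 60%, and 22.1 and 20.5% in the higher-scoring 50%. The cause of these shifts was not tested. No paired analysis was possible because each stage has 1 peak list and none per replicate, and for the same reason no replicate could be left out. The unknown depth limits what a missing peak means, since a site absent from a list is only one that was not called there.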
